A study of Sus scrofa with 12 samples.

Results

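The broad open regions of pig longissimus dorsi muscle were the called ATAC-seq intervals on chromosomes 1 to 18 that spanned at least 2000 bases from start to end. Overlapping intervals were joined into 1 region, which took its position and counts from the longest of them. This rule gave 27 regions from 31 intervals, of 136586 merged regions from 211677 intervals on these chromosomes, so the broad regions were 0.0198% of all regions. The muscle came from 3 Duroc and 3 Luchuan boars, all 180 days old, housed alike and fasted on the last night. Duroc is a Western breed and Luchuan is a Chinese breed, and no treatment or genetic change separated the groups beyond breed. Each interval carried 1 read count for Duroc and 1 for Luchuan, with no values of single boars, so nothing given here has a spread between animals and no comparison could be tested. The RNA-seq libraries of the study were not used here.

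In ATAC-seq, a transposase cuts DNA that is free of nucleosomes and adds sequencing adapters to it, and reads pile up where chromatin is open. Most open regions are short, the size of a single promoter or enhancer. Wide open regions are known from promoters of strongly transcribed genes and from clusters of enhancers at genes that define a cell type. In skeletal muscle such genes encode the contractile proteins of the sarcomere and the transcription factors that drive muscle development, next to promoters that are open in nearly every cell.

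The 27 regions were 2003 to 2753 bases long, with a median of 2132 bases. The shortest intervals that met the length were 2003, 2006 and 2009 bases long. The longest regions that just missed it spanned 1993 bases, 540 bases from an end of MEMO1, 1973 bases, 175 bases from an end of SAMD4A, and 1963 bases, 373 bases from an end of MIDN. The longest region lay in CTSF beside the muscle gene ACTN3, and the next 3 lay beside CASQ1, MYBPC2 and MYH7, which all encode proteins of the muscle fiber. Distances are to the ends of RefSeq protein-coding genes of the Sscrofa11.1 build, an assembly of a Duroc animal, and the gene table gave no strand, so a start site could not be told from a gene's other end. The regions lay on 14 chromosomes, with 4 each on chromosomes 2 and 14 and 3 on chromosome 10.

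The plot of called intervals shows how the breeds differed in calling. The longest interval was a Duroc interval in 24 regions and a Luchuan interval in 3, namely those at RHOBTB1/LOC106506012, at MYOG and near LOC397451. Each of the 27 regions was nonetheless called in both breeds. A Duroc interval alone met the 2000 bases in 21 regions, a Luchuan interval alone in 2 (MYOG and LOC397451), and intervals of both breeds in 4 (RHOBTB1/LOC106506012, CBX3/HNRNPA2B1, LOC102162336 and SGMS1). The regions were thus chosen mostly through Duroc, a choice that favours ratios towards Duroc. In 10 regions Luchuan had 1 interval, in 7 it had 2, and in 10 it had 3 or more, with 5 each at PEA15, MYH7 and LBX1. Duroc had 2 intervals at MYOG and near LOC397451 and 1 in the other regions. Luchuan intervals covered a median of 91.2% of the bases of the Duroc-called regions, from 42.6% at IGFN1 to 99.5% at SGMS1. The deposited counts over all regions held 1.51 times as many Duroc as Luchuan reads, and the part of this depth in the number and length of called intervals was not tested.

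**Figure D1:**
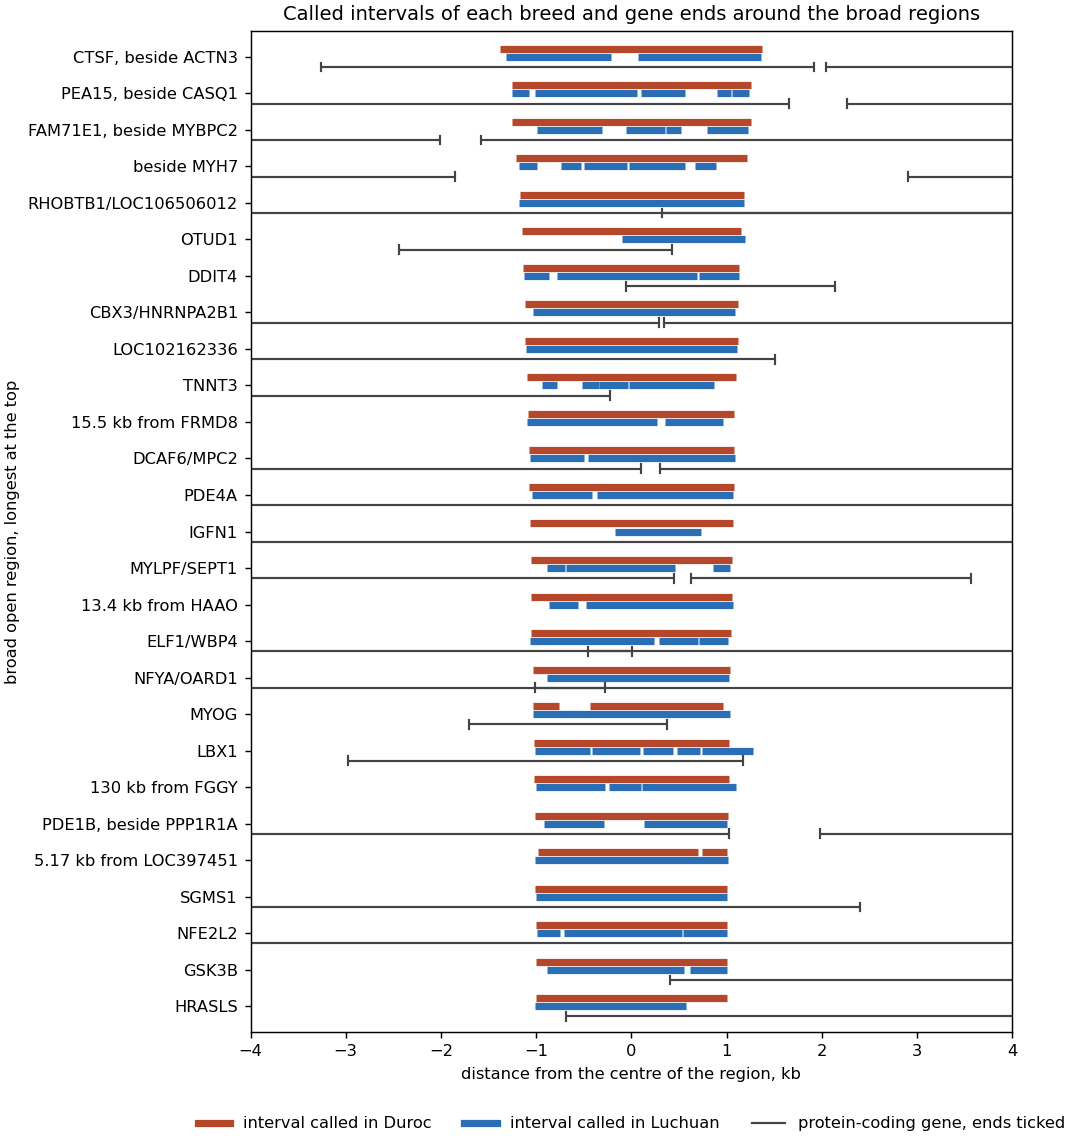
Intervals called in Duroc (upper bar) and Luchuan (lower bar) and protein-coding genes (thin lines with ticked ends) around each of the 27 broad open regions, longest at the top. The x axis is the distance from the centre of the region in kb. At PEA15, MYH7 and LBX1 the Duroc interval corresponds to 5 Luchuan intervals, and at IGFN1 the single Luchuan interval covers 42.6% of the region.

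The broad regions held many reads. A region held 978 to 3336 Duroc reads, with a median of 1996, and 727 to 2013 Luchuan reads, with a median of 1315. Of the 27 regions, 26 were among the 1000 regions with the most reads and 24 among the 100 with the most, a rank in which length itself takes part. Per length the order was less extreme. The reads of both breeds per kb ranged from 823 at LOC102162336 to 2132 near FRMD8, with a median of 1559. The median broad region stood at percentile 98.7 of all regions in reads per kb, the lowest at percentile 81.8, and 11 of the 27 were among the densest 1%. DDIT4 (2081 reads per kb), MYLPF/SEPT1 (1973), CTSF (1898) and GSK3B (1872) came next to FRMD8, and LBX1 (1100), PDE1B (1153), MYH7 (1225) and PEA15 (1257) were the least dense after LOC102162336. Together the 27 regions covered 0.122% of the bases of all regions and held 0.277% of the Duroc and 0.265% of the Luchuan reads.

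**Figure D2:**
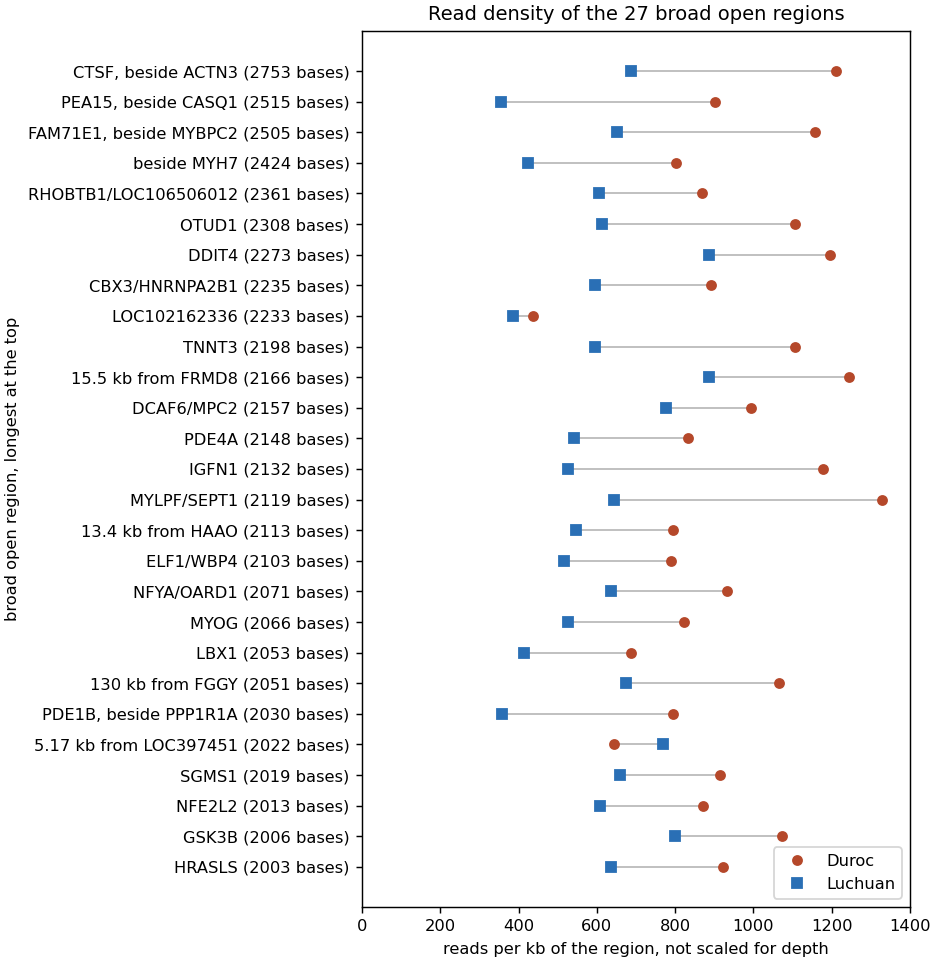
Reads per kb of each broad open region in Duroc (circles) and Luchuan (squares), not scaled for depth, with the length of each region in bases after its name. Duroc values run from 438 to 1328 and Luchuan values from 356 to 887, and the Luchuan value is the higher only near LOC397451.

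Breed was compared by the log2 ratio of Luchuan to Duroc reads after 1 read was added to each. The median ratio of all 136586 regions, in which Duroc held 1.48-fold the Luchuan reads, was set to 0. A value below 0 thus means relatively more Duroc reads. Before scaling, 26 of the 27 regions had more Duroc reads and the region near LOC397451 had more Luchuan reads. After scaling, the ratios ran from -0.77 at PEA15 to 0.82 near LOC397451, with a median of -0.05 and quartiles of -0.28 and 0.06. The quartiles of all regions were -0.33 and 0.33. Of the 27 regions 15 lay below 0 and 12 above, and 15 lay within 0.2 of 0. Scaling by the clean reads of the libraries instead shifts every ratio in the genome by -0.20, which leaves 24 of the 27 below 0 and 3 above. Of all regions, 67.2% were then below 0. Each ratio is given with a 95% interval, the exact Clopper-Pearson interval of the Luchuan share of reads moved to the same scale. The interval lay below 0 in 10 regions, above 0 in 5 and held 0 in 12, and it reached a median of 0.1 to either side. The paper mentions no molecular identifiers and several reads may stem from 1 molecule, so the intervals are for counting error alone. Because whole muscle was sampled, fewer cells of a type and less accessible chromatin per cell cannot be told apart in any of these ratios.

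No broad region reached a 2-fold difference between the breeds. Over all 136586 regions, 7.52% were at least 2-fold higher in Luchuan and 5.09% in Duroc. Many of these held few reads, and the background at matched read number was lower. Among the 1048 regions that held at least as many reads as the broad region with the fewest (1838 in both breeds), 0.191% were at least 2-fold higher in Luchuan and 0.0954% in Duroc. A 1.5-fold difference was reached by 1 broad region in the Luchuan direction, near LOC397451, where the background was 15.5% of all regions and 0.382% of those with as many reads. It was reached by 2 in the Duroc direction, at PEA15 and IGFN1, with a background of 13.8% of all regions and 0.668% of those with as many reads. PDE1B stood just short of it. The 1048 regions had a median ratio of 0.08, quartiles of -0.01 and 0.16 and a median length of 1395 bases. Only 4 of them stood at or below the ratio of the PEA15 region and 3 at or above that of the region near LOC397451, these 2 regions included.

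**Figure D3:**
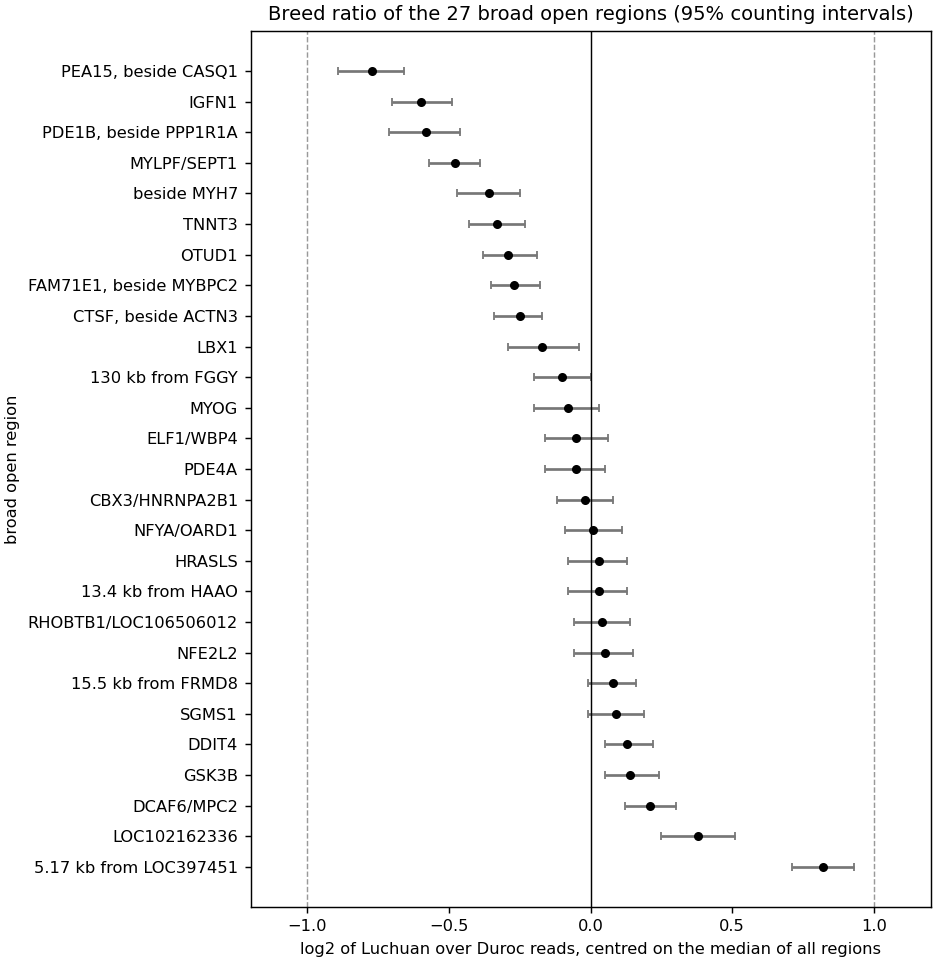
Log2 ratio of Luchuan over Duroc reads in each broad open region, centred on the median of all 136586 regions, with 95% exact intervals for counting error. Dashed lines mark a 2-fold difference. The regions run from -0.77 at PEA15 to 0.82 near LOC397451, and none crosses a dashed line.

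A group of 6 broad regions lay at or beside genes of the contractile and calcium apparatus. TNNT3 and MYLPF encode the fast-fiber troponin T and the fast-fiber regulatory light chain of myosin, and each had an end inside its region. MYH7 encodes the slow myosin heavy chain, ACTN3 the fast-fiber alpha-actinin that anchors thin filaments at the Z-disc, MYBPC2 the fast myosin-binding protein C, and CASQ1 the calcium store protein calsequestrin of fast fibers. For these 4 genes the region lay 644 to 1008 bases beyond the gene. All 6 ratios were below 0, from -0.77 to -0.25 with a median of -0.34, against a median of 0.03 and a range from -0.60 to 0.82 in the other 21 regions. All 6 met the 2000 bases through a Duroc interval alone, so a Duroc-ward ratio and gaps in the Luchuan calls were favoured by the length rule itself. Another 15 regions met it the same way, and these had a median ratio of 0.01 (range from -0.60 to 0.21), with 7 below 0 and 8 above. This grouping was made after the values had been seen and was not tested. The contrast between the 6 and the 15 therefore gives no measure of the part of the length rule, which was not tested either. Luchuan intervals covered 67.4% to 86.5% of these 6 regions, with a median of 70.7%, and 42.6% to 97.9% of the 15, with a median of 92.4%.

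The region beside ACTN3 (chr2:5856968-5859720, 2753 bases) was the longest and lay inside CTSF, which encodes the lysosomal protease cathepsin F, with its edge 666 bases from ACTN3. It held 1890 Luchuan and 3336 Duroc reads, a log2 ratio of -0.25 (95% interval from -0.34 to -0.17). No broad region held more Duroc reads. Next in length was the region inside PEA15 (chr4:90273230-90275744, 2515 bases), a gene for a small phosphoprotein that binds ERK, 1008 bases from CASQ1. Its 896 Luchuan and 2265 Duroc reads gave the lowest ratio of all, -0.77 (from -0.89 to -0.66). PEA15 had 4 further open regions in the gene or up to 2 kb beyond it, all below 0 with a median of -0.75, and CASQ1 had 8, all below 0 with a median of -0.16. PEA15 and CASQ1 are neighbours, so some of these regions were counted for both.

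The third in length (chr6:55310942-55313446, 2505 bases) lay inside FAM71E1 and 758 bases from MYBPC2, with 1630 Luchuan and 2900 Duroc reads and a ratio of -0.27 (from -0.35 to -0.18). MYBPC2 itself had 11 other regions, all of them below 0, with -0.22 as their median. Between MYH7 and the locus LOC100736765, 644 bases from the former and 1691 from the latter, lay a region outside any protein-coding gene (chr7:75673552-75675975, 2424 bases). There 1025 Luchuan and 1945 Duroc reads gave -0.36 (from -0.47 to -0.25). The 7 other regions of MYH7 were further from 0, with a median of -0.83. This slow-fiber gene thus stood on the same side as the fast-fiber genes of the group.

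An end of TNNT3 lay 220 bases from the centre of its region (chr2:1315987-1318184, 2198 bases). The 1306 Luchuan and 2430 Duroc reads there gave -0.33 (from -0.43 to -0.23), and all 10 other regions of TNNT3 were below 0 with a median of -0.43. MYLPF and SEPT1, a septin gene, both had an end inside another region (chr3:17936439-17938557, 2119 bases). It was the densest in Duroc, at 1328 reads per kb, against 644 in Luchuan. Its 1365 Luchuan and 2815 Duroc reads gave -0.48 (from -0.57 to -0.39), the lowest ratio of the 12 regions that held a gene end. Both other regions of MYLPF and all 3 of SEPT1 were below 0.

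Over the 6 contractile and calcium genes, the 43 other open regions, all under 2 kb, were below 0 without exception, with a median of -0.28 and a range from -1.07 to -0.03. When ratios were centred on regions with at least 200 reads instead, 42 of the 43 were below 0, with a median of -0.25. Neighbouring regions of a gene share its surroundings and are not independent. The 6 genes were grouped after their ratios had been seen, each through a Duroc interval, so these regions give no independent support. These values stand beside 50.8% below 0 and a median of -0.01 for the 95342 regions under 2 kb at all protein-coding genes. Over all sarcomere genes examined the share below 0 was 69.4%, and over all excitation and calcium genes 83.0%, these 6 genes included.

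Another 3 regions lay at muscle genes outside that group. IGFN1 encodes a muscle Z-disc protein with immunoglobulin and fibronectin domains, and its region (chr10:23645809-23647940, 2132 bases) lay 13.8 kb inside the gene. The 1123 Luchuan and 2513 Duroc reads gave -0.60 (from -0.70 to -0.49), and 15 of its 17 other regions were also below 0, with a median of -0.42. The single Luchuan interval covered 42.6% of it. In that interval 577 Luchuan and 1134 Duroc reads gave -0.41, and in the remaining 1224 bases 546 and 1379 reads gave -0.77. The Luchuan interval was called on these reads, so a lower ratio outside it is favoured by how it was chosen. The size of this part was not tested. MYOG encodes myogenin, a transcription factor needed for muscle differentiation, and an end of the gene lay in its region (chr9:113783902-113785967, 2066 bases). Its 1084 Luchuan and 1701 Duroc reads gave -0.08, with an interval from -0.20 to 0.03 that held 0. LBX1 encodes a homeobox factor of migrating muscle precursors, and the region inside it (chr14:112285427-112287479, 2053 bases) held 849 Luchuan and 1410 Duroc reads, a ratio of -0.17 (from -0.29 to -0.04). In MYOG and LBX1 the broad region was the only open region in the gene or within 2 kb of it.

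Several regions lay at genes of signalling, stress response and metabolism, and most of their ratios were near 0. DDIT4, a stress-induced inhibitor of mTOR signalling, had an end 55 bases from the centre of a region (chr14:75116627-75118899, 2273 bases) with the most Luchuan reads of all, 2013, against 2716 in Duroc. Its ratio was 0.13 (from 0.05 to 0.22), or -0.07 when scaled by clean reads, and its 3 other regions were all above 0 with a median of 0.42. The region at an end of GSK3B, which encodes glycogen synthase kinase 3 beta, had 1604 Luchuan and 2152 Duroc reads and a ratio of 0.14 (from 0.05 to 0.24), or -0.06 when scaled by clean reads (chr13:140134699-140136704, 2006 bases). OTUD1 encodes a deubiquitinase, and the region at its end (chr10:51619733-51622040, 2308 bases) held 1416 Luchuan and 2555 Duroc reads, a ratio of -0.29 (from -0.38 to -0.19). The Luchuan interval there covered 54.2% of the region, and within that interval the ratio was -0.05, from 983 Luchuan and 1506 Duroc reads. Of the 1288 bases of that interval, 1252 lay in the region. As at IGFN1, a ratio nearer 0 in the Luchuan interval is favoured by how the interval was chosen, and the size of this part was not tested.

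Both phosphodiesterase genes carried an internal region. PDE1B, whose enzyme is activated by calcium and calmodulin, held its region at 965 bases from PPP1R1A, the gene of a protein phosphatase 1 inhibitor (chr5:19750856-19752885, 2030 bases). It had the fewest Luchuan reads of all 27, 727, against 1614 in Duroc, and a ratio of -0.58 (from -0.71 to -0.46). Of the 7 other regions of PDE1B, 5 were below 0, with a median of -0.58, and PPP1R1A had 4 of 6 below 0 with a median of -0.08. PDE4A, a phosphodiesterase specific for cAMP, had a region 12.4 kb inside the gene (chr2:69236736-69238883, 2148 bases) with 1164 Luchuan and 1789 Duroc reads and a ratio of -0.05 (from -0.16 to 0.05). The 2 phosphodiesterase regions therefore stood apart by more than their counting intervals.

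NFE2L2, the master regulator of the antioxidant response, had a region far inside the annotated gene (chr15:83007908-83009920, 2013 bases), where 1224 Luchuan and 1755 Duroc reads gave 0.05 (from -0.06 to 0.15). Its other regions differed from it in direction more often than not, with 19 of 25 below 0 and a median of -0.20. SGMS1 encodes a sphingomyelin synthase, and its region 2.41 kb inside the gene (chr14:99454695-99456713, 2019 bases) held 1330 Luchuan and 1846 Duroc reads, a ratio of 0.09 (from -0.01 to 0.19). The 66 other regions of this large gene were evenly divided, 33 on each side of 0. HRASLS encodes a phospholipase and acyltransferase, and the shortest region, at its end (chr13:130281796-130283798, 2003 bases), held 1274 Luchuan and 1849 Duroc reads, a ratio of 0.03 (from -0.08 to 0.13).

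Beside MYLPF/SEPT1, another 4 regions held ends of 2 genes, and these are genes with roles in most cells. CBX3, which encodes a heterochromatin protein, and HNRNPA2B1, which encodes an RNA-binding protein, shared a region (chr18:46203705-46205939, 2235 bases) with 1332 Luchuan and 1996 Duroc reads and a ratio of -0.02 (from -0.12 to 0.08). DCAF6, a substrate receptor of a ubiquitin ligase, and MPC2, a subunit of the mitochondrial pyruvate carrier, shared a region (chr4:83068537-83070693, 2157 bases) that also overlapped the annotated miRNA MIR9810. Its 1675 Luchuan and 2143 Duroc reads gave 0.21 (from 0.12 to 0.30), the third highest ratio. The other regions of DCAF6 were split, with 17 above and 19 below 0. The annotated genes ELF1, an ETS transcription factor, and WBP4, a splicing factor, overlapped at their ends in a region (chr11:25771496-25773598, 2103 bases) with 1085 Luchuan and 1661 Duroc reads and a ratio of -0.05 (from -0.16 to 0.06). NFYA, a subunit of the CCAAT-binding factor NF-Y, and OARD1, an ADP-ribose hydrolase, gave 0.01 (from -0.09 to 0.11) from 1315 Luchuan and 1932 Duroc reads (chr7:36385654-36387724, 2071 bases). For 3 of these 4 regions the interval of the ratio held 0.

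The remaining 6 regions lay at loci that have only a number for a name or far from gene ends. An end of LOC106506012, a locus within RHOBTB1, lay in a region (chr14:64398423-64400783, 2361 bases) with 1429 Luchuan and 2054 Duroc reads and a ratio of 0.04 (from -0.06 to 0.14), whereas 29 of the 31 other regions of RHOBTB1 were below 0 and their median was -0.30. The region inside LOC102162336 (chr10:24973931-24976163, 2233 bases) had the fewest Duroc reads, 978, against 860 in Luchuan. Its ratio of 0.38 (from 0.25 to 0.51) was the second highest, and all 7 other regions of this locus were above 0 with a median of 0.41. The highest ratio, 0.82 (from 0.71 to 0.93), came from 1553 Luchuan and 1302 Duroc reads in a region (chr16:23679390-23681411, 2022 bases) whose centre lay 5.17 kb from LOC397451, outside any protein-coding gene.

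The centres of the other 3 lay 15.5 kb from FRMD8, 13.4 kb from HAAO, an enzyme gene of tryptophan breakdown, and 130 kb from FGGY, a carbohydrate kinase gene. Each of these 3 regions overlapped an annotated long noncoding RNA. Near FRMD8 it was LOC100513133 (chr2:6806370-6808535, 2166 bases), with 1921 Luchuan and 2696 Duroc reads and a ratio of 0.08 (from -0.01 to 0.16). Near HAAO it was LOC106509843 together with a tRNA gene (chr3:97566316-97568428, 2113 bases), with 1155 Luchuan and 1679 Duroc reads and a ratio of 0.03 (from -0.08 to 0.13). Near FGGY it was LOC102165506 (chr6:153342104-153344154, 2051 bases), with 1382 Luchuan and 2187 Duroc reads and a ratio of -0.10 (from -0.20 to 0.00). The region near FRMD8 had 10 other open regions within 10 kb, the most of all 27, against a median of 3 for broad regions and 2 for all regions. No other region lay within 10 kb of those near HAAO or at ELF1/WBP4, GSK3B and HRASLS.

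The broad regions were placed near gene ends more often than the average region. The centre lay within 2 kb of a gene end in 19 of the 27, or 70.4% (95% exact interval from 49.8% to 86.2%), compared with 17.1% of all regions. A gene end lay inside 12 of them, or 44.4% (from 25.5% to 64.7%), compared with 6.71% of all regions, and ends of 2 genes lay inside 5, or 18.5% (from 6.3% to 38.1%), compared with 0.813%. Another 6 lay inside a gene within 2 kb of its end, and 1 lay outside but within that distance, the region at MYH7. Of the other 8, those in PDE4A, IGFN1, SGMS1 and NFE2L2 lay deeper inside genes and those near FRMD8, HAAO, FGGY and LOC397451 lay outside. The median distance to a gene end was 1178 bases, compared with 20846 bases for all regions. A wider region holds a gene end more easily, so the share of centres is the fairer measure. The 12 regions with a gene end had a median of 1634 reads per kb and a median ratio of -0.01 (range from -0.48 to 0.21), and the 15 without had 1412 reads per kb and -0.10 (range from -0.77 to 0.82). The extremes of the breed ratio in both directions were thus in regions without a gene end.

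Length classes of all regions put these values in order. The share with a centre within 2 kb of a gene end was 11.5% for the 81884 regions of 150 to 299 bases, 30.0% for the 23068 of 500 to 999 bases, 68.3% for the 4466 of 1000 to 1499 bases and 74.9% for the 419 of 1500 to 1999 bases. The broad regions, at 70.4%, did not stand above the 2 classes under them within counting error. The share that held an end was lower in the broad regions, 44.4%, than in the class of 1500 to 1999 bases, 65.6%. The broad regions' interval ended just under that value, at 64.7%. Density rose with each class, from medians of 166 Duroc and 116 Luchuan reads per kb in the shortest to 914 and 608 in the broad regions. The share past a 2-fold difference between breeds fell from 16.1% in the shortest class to 0.239% at 1500 to 1999 bases and 0% in the broad regions, where the 95% exact interval reached to 12.8%. The longest interval was Duroc's in 61.2%, 74.7%, 73.3%, 71.7%, 79.2% and 88.9% of the classes from the shortest to the broad, which is no steady rise. The breed ratio did not follow length either, with class medians of 0.06, -0.11, -0.03, 0.05, 0.02 and -0.05 from the shortest to the broad.

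**Figure D4:**
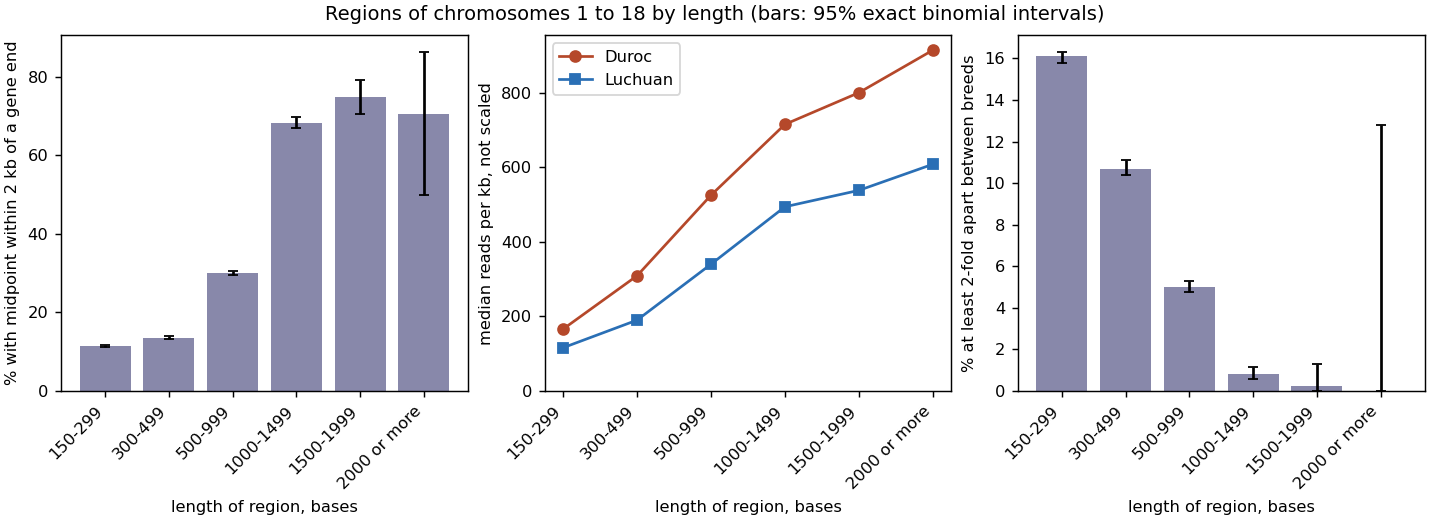
Regions of chromosomes 1 to 18 by length in bases: the share with its midpoint within 2 kb of a gene end (left), the median reads per kb in Duroc and Luchuan, not scaled for depth (middle), and the share at least 2-fold apart between breeds (right). Error bars are 95% exact binomial intervals. The gene end share reaches 68.3% in the class of 1000 to 1499 bases and does not rise clearly after it, while density rises to 914 and 608 reads per kb in the broad regions.

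Gene lists were compared for the width of their open regions. A gene was credited with a region whose midpoint lay in the gene or within 2 kb of it. All 10 markers of the skeletal muscle fiber had an open region, and so did 35 of 45 markers of endothelial, fibroblast, fat, smooth muscle, immune, blood, nerve and satellite cells, against 82.3% of all protein-coding genes, so the presence of a region did not set these lists apart. By midpoint, TNNT3, MYLPF and MYH7 were the 3 of 53 matched sarcomere genes with a broad region, and MYOG and LBX1 were the 2 of 43 muscle regulators. Of all 18705 protein-coding genes, 30 had a broad region by midpoint. TNNT3 and MYLPF are also among the 10 fiber markers, and PAX7 is in both the muscle regulators and the markers of satellite cells. Counted by the edge of the region within 2 kb, a criterion added after values had been seen, ACTN3 and MYBPC2 joined the sarcomere genes, and CASQ1 was 1 of 32 genes of excitation and calcium handling. By the same criterion 34 of all 18705 protein-coding genes, 0.182%, had a broad region. None of the 46 metabolic regulators, 42 immediate early and stress genes, 71 ribosomal protein genes, 36 HOX genes, 45 markers of other cell types or 62 developmental factors of other lineages had a broad region by either criterion. At a background of 0.182% these counts of 0 are near what lists of this size would hold, and nothing is read from them.

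The longest region per gene gave the same lists a finer measure. Its median was 1249 bases in the fiber markers, 1073 in the sarcomere genes, 1033 in the muscle regulators, 1039 in the immediate early and stress genes and 1003 in the metabolic regulators, against 744 for all protein-coding genes. It was 931 in the excitation and calcium genes and 898 in the ribosomal protein genes, whose products are made in every cell. The HOX genes (448), the markers of other cell types (375) and the developmental factors of other lineages (218) were below the median of all genes. A region of at least 1 kb was present at 80.0% of the fiber markers, 54.7% of the sarcomere genes and 64.3% of the immediate early and stress genes, against 6.67% of the markers of other cell types and 25.6% of all genes. The 3 such markers of other cell types were SPI1, PAX7 and SPRY1, of which PAX7 and SPRY1 stand for satellite cells. Gene length differed between lists, with a median of 5.07 kb in the immediate early and stress genes, 35.3 kb in the markers of other cell types and 20.7 kb in all genes, and its part in these values was not tested.

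**Figure D5:**
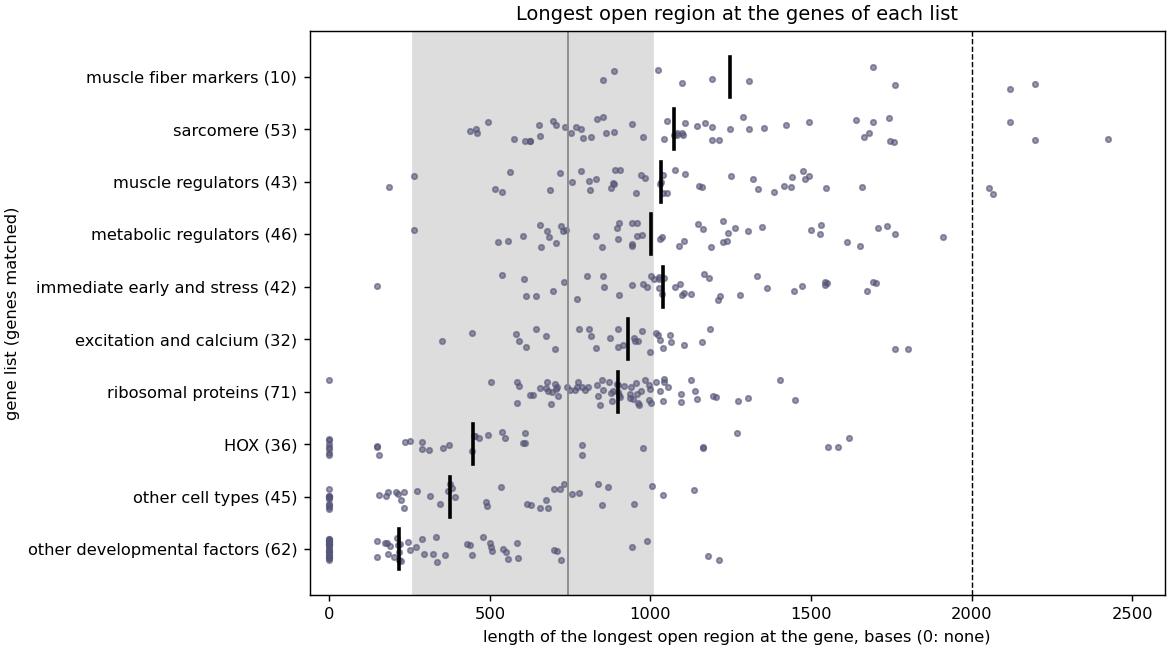
Length in bases of the longest open region at each gene of 10 lists, with the list median (black bar), the quartiles and median of all protein-coding genes (grey band and line, median 744) and the 2000-base limit (dashed). Points past the dashed line are TNNT3, MYLPF and MYH7 in the sarcomere genes, TNNT3 and MYLPF again in the fiber markers, and LBX1 and MYOG in the muscle regulators.

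The breed ratio of the shorter regions also differed between lists. Of the regions under 2 kb, 69.4% were below 0 at the sarcomere genes (768 of 1107, median -0.15) and 83.0% at the excitation and calcium genes (469 of 565, median -0.27). The share was 59.9% at the fiber markers, 52.8% at the muscle regulators, 50.4% at the ribosomal protein genes and 50.3% at the metabolic regulators, against 50.8% at all genes. A share above that of the sarcomere genes was also found outside muscle genes, with 77.6% below 0 at the HOX genes (59 of 76, median -0.21). The immediate early and stress genes, with 40.8%, and the developmental factors of other lineages, with 42.1%, were on the other side of all genes. At the markers of other cell types 171 of 286 regions lay above 0, with a median of 0.12. This pooled direction was opposite to that of the sarcomere genes, but many of the regions came from TCF4 (61), SPRY1 (39) and RUNX1 (35). The longest region per gene was above 0 at 19 of these markers and below 0 at 15, against 8814 and 6323 of all genes. The markers thus did not share 1 direction. Their part in the ratios of the 6 broad regions at contractile and calcium genes was not tested.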

How the data were processed

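ATAC-seq of longissimus dorsi muscle from 3 Duroc and 3 Luchuan boars was analysed. Per the paper's methods and the submitters' processing notes, reads were filtered with Trimmomatic (version 0.36), aligned to Sus scrofa 11.1 with Bowtie2 and called with MACS2. Removal of duplicates, the shift for the transposase and the pooling of boars are not given in the sources used here. The authors deposited 217213 intervals with unscaled whole-number read counts, 1 per breed and interval, which were used as the authors' pooled values. Their rescaled fold change, average signal and p-value per interval hold their own comparison and were not used.

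Starts were taken to count from 0, which makes the shortest interval 150 bases, and are printed counted from 1. In 46760 pairs of nested intervals, 0 inner intervals held more reads than the outer, so counts cover whole intervals. Intervals sharing at least 1 base were merged. Depth was known from reads in regions, 20275769 for Duroc and 13460009 for Luchuan. Genes were the 18722 RefSeq protein-coding genes of Sscrofa11.1 on chromosomes 1 to 18, without strand, exons or untranslated regions, and no genome sequence was used here.

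The regions and gene lists were chosen with earlier results of these data known. The rule for naming took the 10 longest regions, the 5 most and 5 least dense, the 6 highest and 6 lowest ratios and those at list genes, and the remaining regions were named as well to account for all 27. Alternatives covered the minimum length, merging, gene windows, scaling, the added read and the fold threshold. Merging, distances and calls were tested on simulated data. The software was Python 3.11.15 with pandas 2.3.3, NumPy 2.4.6, Matplotlib 3.10.9 and SciPy 1.17.1.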

Additional observations from a re-analysis of the deposited data

Results flagged for a closer look

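Regions of at least 2 kb on the sex chromosomes lay outside the comparisons above. There were 3, from 4 intervals. On chromosome X, a region from 5995050 to 5997179 (2130 bases) lay 1.79 kb from an end of TBL1X, was called in both breeds and held 603 Luchuan and 960 Duroc reads, a log2 ratio of -0.10 (95% exact interval from -0.25 to 0.04). On chromosome Y, a region from 40209682 to 40212587 (2906 bases), longer than any of the 27, lay 18.7 kb from LOC100625034, was called in both breeds and held 2312 Luchuan and 1477 Duroc reads, a ratio of 1.21 (from 1.12 to 1.31). Another on chromosome Y, from 42726409 to 42728515 (2107 bases), was called in Duroc and not in Luchuan, with 65 Luchuan and 1203 Duroc reads and a ratio of -3.62 (from -4.03 to -3.28). Both regions of chromosome Y were past a 2-fold difference, in opposite directions, whereas no region of this length on chromosomes 1 to 18 was. They were singled out because they hold reads outside the chromosomes compared, and the difference from the other chromosomes was not tested.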

How the results depend on the processing

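The number of broad regions was 446 at a minimum of 1500 bases, 3 at 2500 bases and 0 at 3000 bases, where shares and ratios could not be given. It was 27 when all intervals were merged before the length was applied or when those within 1000 bases were joined, 31 without merging and 30 with chromosomes X and Y, the last chosen after seeing the data. The share of centres at a gene end was 44.4% with a window of 1000 bases and also 44.4% when the region itself had to hold the end, and ranged from 74.1% to 74.7% under the other 3 settings. Scaling by the clean reads the study states gave a median ratio of -0.25, with 24 broad regions below 0 and 3 above (LOC397451, LOC102162336 and DCAF6/MPC2). By that scaling 67.2% of all regions were below 0, so the directions at DDIT4 and GSK3B hold only relative to the other regions. Under the other 10 settings the median ratio ranged from -0.08 to -0.01. No region passed 2-fold under any scaling or at 4-fold. At 1.5-fold 1 passed in the Luchuan and 2 in the Duroc direction. At 1.5-fold with scaling by clean reads, added after seeing the data, these were 1 and 4, with PDE1B and MYLPF/SEPT1 joining PEA15 and IGFN1. At a minimum of 1500 bases 1 region passed 2-fold in the Duroc direction (chr9:113871159-113872921, 1763 bases, 0.399 kb from MYBPH, with 520 Luchuan and 1669 Duroc reads and a ratio of -1.12). No paired analysis was possible because the table holds 1 pooled count per breed and no values of single boars, and for the same reason no boar could be left out. Counting error, a median of 0.1 to either side on the log2 scale, is the only error these data give.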

Other observations

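Many muscle genes had a long open region that missed 2 kb. Among the metabolic genes, PYGM, which encodes the glycogen phosphorylase of muscle, had the longest at 1911 bases, with 1225 Luchuan and 2193 Duroc reads and a log2 ratio of -0.27. CKM, the muscle creatine kinase gene, had a region of 1762 bases with 1249 Luchuan and 1968 Duroc reads (-0.09), and TFEB, a regulator of lysosome genes, had 1737 bases (0.02). Among the calcium genes, ATP2A1, which encodes the calcium pump of fast fibers, had 1802 bases with 1145 Luchuan and 2103 Duroc reads (-0.31), and JPH1, which encodes junctophilin of the triad, had 1762 bases (0.04). The 419 regions of 1500 to 1999 bases had a median ratio of 0.02 and quartiles of -0.07 and 0.11. In the sarcomere list, 7 genes had their longest region in this range, all with a ratio below 0, CAPN3 and TTN only slightly. These were MYOM2 at 1759 bases (-0.12), MYOZ3, a Z-disc protein gene, at 1746 with 456 Luchuan and 1226 Duroc reads (-0.86), CAPN3, the muscle calpain gene, at 1743 (-0.03), and TTN, the titin gene, at 1693 (-0.04). The other 3 were FLNC, a filamin gene, at 1681 (-0.18), TNNI2, the fast troponin I gene, at 1665 (-0.32), and TPM2, a tropomyosin gene, at 1639 with 616 Luchuan and 1547 Duroc reads (-0.76). ACTA1, the skeletal actin gene, had 1306 bases (0.08). The 8 metabolic regulators in this range, PYGM, CKM and TFEB among them, had ratios from -0.27 to 0.07, with 4 below 0.

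The fast myosin heavy chain genes had shorter regions than MYH7. The longest was 1192 bases at MYH4 (478 Luchuan and 1016 Duroc reads, -0.52), 887 bases at MYH1 (253 and 680 reads, -0.86) and 852 bases at MYH2 (331 and 628 reads, -0.36). Among the muscle regulators, MYF6, a relative of MYOG, had 1441 bases (0.11), MYOD1 had 971 (0.00), and SIX2 had 1657 (0.00). The longest region at a HOX gene was at HOXD3, 1619 bases with 850 Luchuan and 1303 Duroc reads (-0.05), and at an immediate early or stress gene it was at HSPA8, a chaperone gene, 1701 bases (0.00). These genes were named after their values had been seen.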
